A study of Mus musculus with 12 samples.

Results

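The genes described here are 36 genes of the integrated stress response and of protein folding, followed in mouse dorsal root ganglia after nerve injury. They were chosen by name: 15 genes of the pathway of the transcription factor Atf4, 11 genes of the endoplasmic reticulum (ER) stress response, and 10 heat shock and chaperonin genes. All 36 were found among the 24060 gene symbols of the study. Of these, 33 reached an RPKM (reads scaled to gene length and library size) of at least 1 in at least 3 libraries and were tested, which left out Ddit4, Hspa1a and Hspa1b. Atf5, Trib3, Chac1 and Sesn2 reached that level in no naive library, so these 4 genes entered only through libraries of injured mice. Calls of these 4 genes, and counts and medians over the tested Atf4 pathway genes, are therefore descriptions that lean towards higher values.

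The ganglia, where the cell bodies of sensory neurons lie, were those of adult C57BL/6J males, 9 to 10 weeks old. RNA-seq libraries were made from naive mice and from mice at day 1, day 3 and day 7 after spared nerve injury, with 3 libraries in each of the 4 groups. In this model of neuropathic pain 2 branches of the sciatic nerve, common peroneal and tibial, are tied and cut while the sural branch stays intact, so a ganglion holds both injured and uninjured neurons. The study set gene expression beside pain behaviour over time. Sham-operated mice were not analysed here, and effects of surgery and of nerve damage cannot be told apart. The labels do not say whether a library came from 1 animal or a pool, nor which ganglia were taken, and p-values measure the spread between these libraries.

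The integrated stress response is started by kinases that sense lack of amino acids, unfolded protein in the ER, viral RNA or lack of heme, and that phosphorylate the translation factor eIF2 alpha. Most translation then slows while the Atf4 messenger is translated more, and Atf4 protein switches on genes for amino acid synthesis, amino acid import and tRNA charging, so the level of the Atf4 messenger alone does not give its activity. The ER stress response adds the sensors Ire1, which splices the Xbp1 messenger, and Atf6, and raises ER chaperones, whereas the heat shock response is driven by Hsf1 and raises cytosolic chaperones. In sensory neurons the small heat shock protein Hspb1 is known as an injury-induced gene.

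Library sizes, worked out from the value that 1 read adds to a gene, ran from 13627000 to 17953000 reads. The summed RPKM of 12 neuron markers was 3003 to 4053 in naive, 2377 to 3819 at day 1, 2739 to 3584 at day 3 and 1975 to 3385 at day 7, and that of 7 satellite glia markers stayed between 228 and 436. Of 5 markers of central glia, summed at 13.2 to 24.5 RPKM, Cnp, which Schwann cells also express, made up 9.85 to 21.9 RPKM and Aqp4 2.22 to 4.28 RPKM, while Gfap, Mog and Olig2 were at most 0.786, 0.14 and 0.122 RPKM. Of 5 erythrocyte genes, Alas2 had 15.8 to 24.3 RPKM, and the globin genes Hba-a2, Hbb-bs and Hbb-bt were listed at 0 in all 12 libraries and Hba-a1 at no more than 0.0656 RPKM. The sum of 10 skeletal muscle markers was 43.1 RPKM in naive replicate 1 and 32.2 RPKM in day 7 replicate 2, against 1.94 to 7.57 RPKM in the other 10. The sum of 11 macrophage markers was 11.1 to 17.2 RPKM in naive, 14.7 to 17.7 RPKM at day 1, 29.4 to 41.3 RPKM at day 3 and 28.6 to 44.8 RPKM at day 7, and its part in the results at days 3 and 7 was not tested. For 4 neutrophil markers the sum was 54.8 RPKM in day 3 replicate 3, against 7.34 to 28.9 RPKM in the other libraries. The part of this difference in the results was not tested beyond leaving libraries out. In bulk ganglia, fewer cells of a type and less RNA per cell cannot be told apart.

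Each of the 3 responses has a DNA element known from the promoters of its target genes, and the windows below show it where a gene described here carries it close to its RefSeq start. RefSeq promoters (build GRCm38.p6, 250 bases before to 50 after each start) matched 33 of the 36 genes. Searched on both strands, TGATGNAA, the core of the amino acid response element bound by Atf4 with C/EBP proteins, lay in 4 of the 14 Atf4 pathway genes with a promoter, 1 of 11 ER genes and 0 of 8 heat shock genes, and in 4.51% of all 27025 genes with a promoter. The ER stress element, CCAAT and CCACG with 9 free bases between them, lay in 5 of 11 ER genes and in 0.137% of all genes. The heat shock element, searched as GAA, TTC and GAA with 2 free bases after each of the first 2 blocks, lay in 3 of 8 heat shock genes and in 0.662% of all genes. TGACGTCA, the cyclic AMP response element, lay in none of the 33 and in 2.03% of all genes. The 4 patterns do not contain each other. A match is a run of letters, not a shown binding site, and a promoter without one says only that these letters are not in its window. The short windows below hold the match in capitals with 6 bases on each side, 5′ to 3′ on the strand of the gene, and capitals that read as the reverse complement mark a match on the other strand. Like that of Trib3, the match of Hsph1 lies after the start, by 15 or 36 bases depending on the RefSeq start used.
Trib3 (chr2:152344033-152344052, minus strand, amino acid response element core, 14 bases after the start): tcaggtTTACATCAgccggg
Chac1 (chr2:119351043-119351062, plus strand, amino acid response element core): ctgccgTTGCATCActcctg
Asns (chr6:7693219-7693238, minus strand, amino acid response element core): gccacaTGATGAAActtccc
Slc7a11 (chr3:50443666-50443685, minus strand, first of 2 amino acid response element cores): tgtggcTGATGCAAacctgg
Slc7a11 (chr3:50443647-50443666, minus strand, the second core): gagaatTTGCATCAtcatgc
Herpud1 (chr8:94386311-94386330, plus strand, amino acid response element core): ggcgggTTGCATCAgcccgc
Hspa5 (chr2:34772019-34772049, plus strand, ER stress element): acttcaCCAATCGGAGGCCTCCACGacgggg
Hsp90b1 (chr10:86705632-86705662, minus strand, first of 2 ER stress elements): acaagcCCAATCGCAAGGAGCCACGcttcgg
Dnajc3 (chr14:118937821-118937851, plus strand, ER stress element): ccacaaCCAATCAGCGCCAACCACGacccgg
Pdia6 (chr12:17266485-17266515, plus strand, ER stress element): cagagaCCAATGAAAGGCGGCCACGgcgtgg
Calr (chr8:84847069-84847099, minus strand, ER stress element): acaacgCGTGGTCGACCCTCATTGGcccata
Hsph1 (chr5:149636282-149636306, minus strand, heat shock element): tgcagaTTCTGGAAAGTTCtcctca
Hspd1 (chr1:55088053-55088077, minus strand, heat shock element): cttccgGAAGGTTCTAGAAcggacc
Hspd1 and Hspe1 lie head to head, and their promoter windows share 285 bases, so the heat shock element of Hspe1 is the same run of bases as that of Hspd1.

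To show such an element in its promoter, the 250 bases before the RefSeq start of Chac1 (chr2:119350992-119351241, plus strand) are printed for the Atf4 pathway and those of Dnajc3 (chr14:118937682-118937931, plus strand) for the ER genes, with the match in capitals.
Chac1: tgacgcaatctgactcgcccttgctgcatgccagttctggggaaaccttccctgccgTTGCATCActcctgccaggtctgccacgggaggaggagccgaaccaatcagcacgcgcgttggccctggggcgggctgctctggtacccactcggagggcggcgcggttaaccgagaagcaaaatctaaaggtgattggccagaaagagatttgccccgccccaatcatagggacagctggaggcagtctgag
Dnajc3: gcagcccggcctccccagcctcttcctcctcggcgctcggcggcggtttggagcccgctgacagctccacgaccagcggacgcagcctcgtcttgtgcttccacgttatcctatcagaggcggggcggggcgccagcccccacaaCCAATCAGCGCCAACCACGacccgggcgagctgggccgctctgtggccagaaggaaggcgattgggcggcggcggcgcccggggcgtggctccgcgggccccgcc

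In naive ganglia, several cytosolic and ER chaperones stood at the top of the 36 genes in RPKM. At the bottom were low-level Atf4 targets together with the cytosolic chaperones Hspa1a (0.592 RPKM) and Hspa1b (0.302 RPKM, the lowest of all). The constitutive chaperone Hspa8 averaged 356 ± 99.8 RPKM, Hsp90aa1 (a cytosolic Hsp90) 282 ± 46 RPKM and Hsp90b1 (the ER form of Hsp90) 137 ± 21.3 RPKM (SD, n = 3 each). Hspa8 (288 to 471 RPKM) and Hsp90aa1 (246 to 334 RPKM) overlapped in range, and both lay above Hsp90b1 (124 to 162 RPKM). Hspa5, the main ER chaperone, followed at 80.9 ± 14.5 RPKM, overlapping Hsph1, a co-chaperone of Hspa8, at 73 ± 7.11 RPKM. Among Atf4 pathway genes the highest was Asns, which makes asparagine, at 31.8 ± 6.2 RPKM, and the lowest were Ddit4 at 0.464 ± 0.114 RPKM and Chac1, which breaks down glutathione, at 0.461 ± 0.134 RPKM. In all, 17 genes averaged at least 10 RPKM and 29 at least 1 RPKM. Hspa8, Hspd1 and Hspe1 have processed pseudogenes in the mouse genome, with which reads can be shared.

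**Figure D1:**
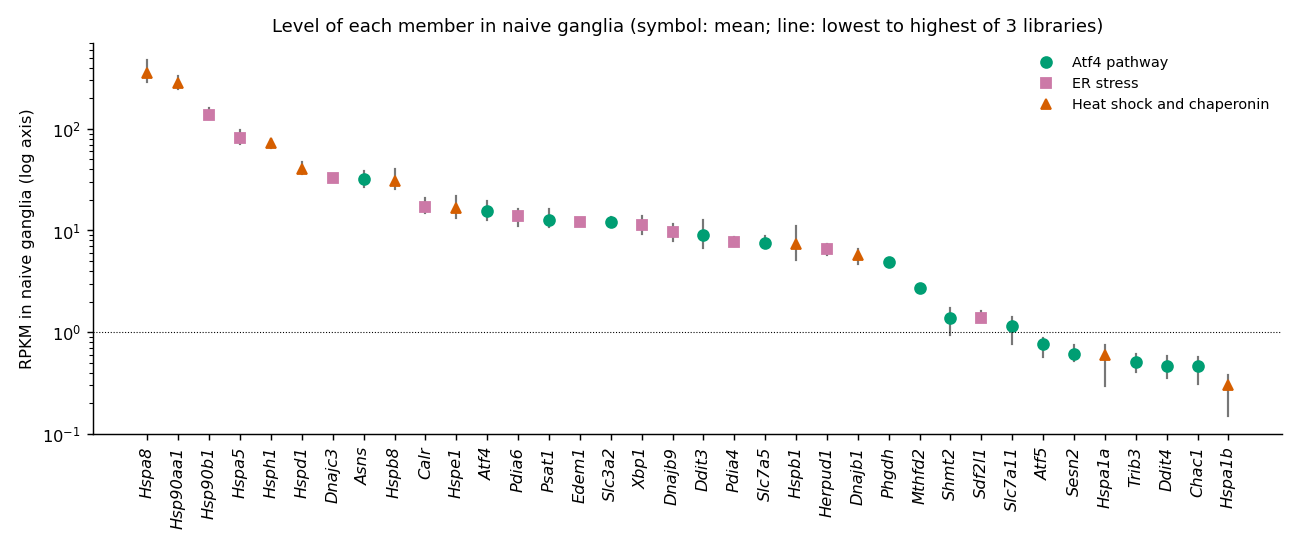
Mean RPKM of the 36 genes in naive ganglia on a log axis (symbol: mean of 3 libraries, line: lowest to highest library, dotted line: 1 RPKM), coloured by gene group. Heat shock and ER genes fill the top 7 places, from Hspa8 at 356 RPKM to Dnajc3 at 33.2 RPKM, and the 7 genes under 1 RPKM are Atf5, Sesn2, Trib3, Ddit4 and Chac1 of the Atf4 pathway with Hspa1a and Hspa1b.

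After injury, 5 Atf4 pathway genes and 1 heat shock gene rose on at least 1 day, and none of the 33 tested genes fell. Among the Atf4 pathway genes that rose, Trib3 and Chac1 were tested only through libraries of injured mice, so their calls are descriptions. Tests were made with limma on log2(RPKM + 0.5) across 14195 genes, with Benjamini-Hochberg adjustment and a threshold of 0.05, and fold changes are log2 differences, injured minus naive, on that scale. At day 1, 1 of 33 tested genes passed, where 3.43% of all genes did. At day 3, 5 of 33 passed, where 5.67% of all genes did, and at day 7, 1 of 33, where 2.92% of all genes did. A test of any difference among the 4 groups called 1 of 33, Mthfd2 (adjusted p = 0.0157), where 4.78% of all genes were called. The day 1 and day 7 shares of the 33 genes were thus close to those of all genes. The 3 comparisons share the naive libraries.

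**Figure D2:**
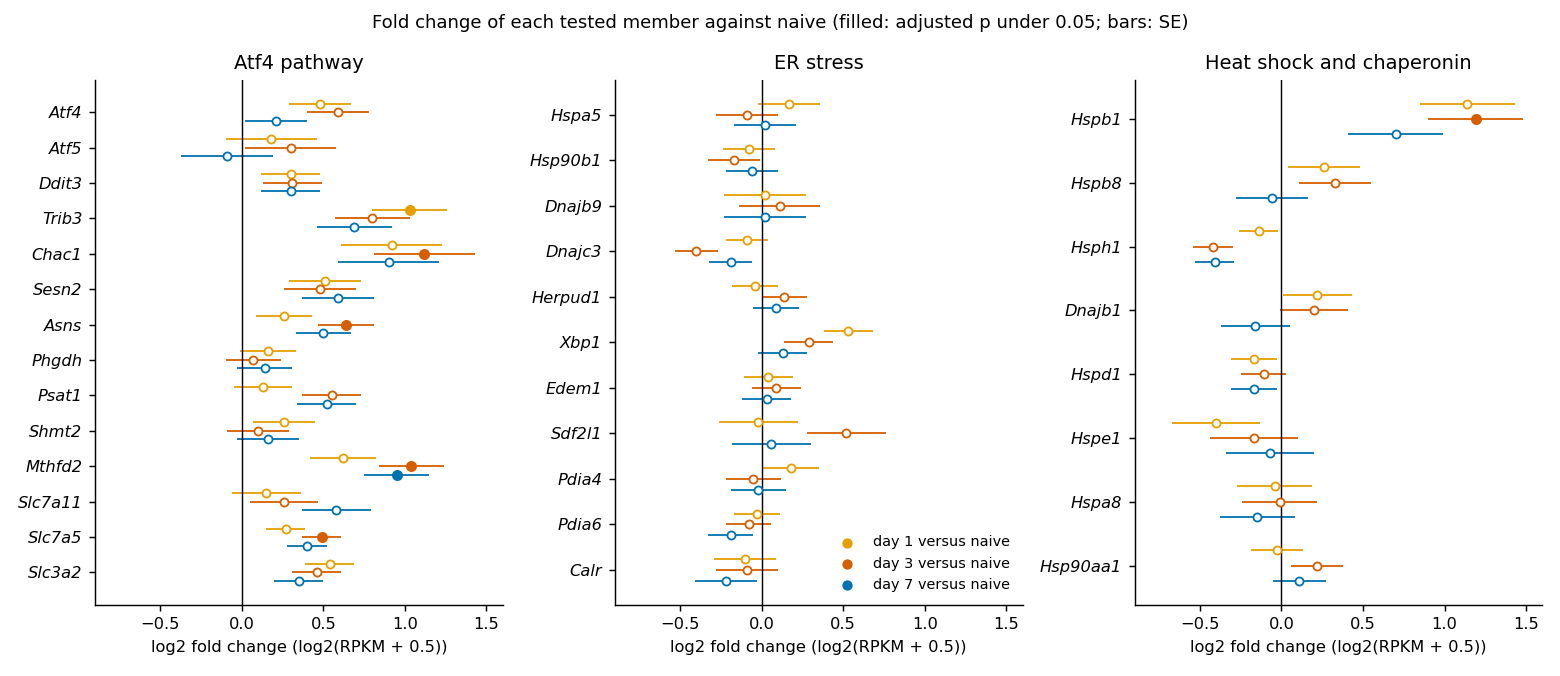
Log2 fold change with its SE of each of the 33 tested genes at day 1 (yellow), day 3 (red) and day 7 (blue) against naive, one panel for each gene group, filled where the adjusted p is under 0.05. Filled points are Trib3 at day 1, Chac1, Asns, Mthfd2, Slc7a5 and Hspb1 at day 3, and Mthfd2 at day 7, while the ER panel has none and scatters around 0.

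The Atf4 pathway genes lay mostly above naive. Of the 14 tested, 14 had a positive fold change at day 1, 14 at day 3 and 13 at day 7, with medians of 0.28, 0.49 and 0.45, against medians of -0.01, 0.00 and 0.00 over all genes. Without the 4 genes that were under the limit in every naive library, all 10 others were positive on each day, with medians of 0.27, 0.47 and 0.38. Of the 14, 1 passed at day 1, 4 at day 3 and 1 at day 7, and of the 10 others 0, 3 and 1. Among these 10, all 3 injured libraries lay above all 3 naive libraries for 2 at day 1, 5 at day 3 and 2 at day 7, which was so for 11.0%, 13.8% and 11.0% of all genes.

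Of the transcription factors, Atf4 itself, on mouse chromosome 15, had 19.4, 12.7 and 15.1 RPKM in the naive libraries, 20.8, 19.8 and 24.9 RPKM at day 1, 17.5, 31.4 and 25.6 RPKM at day 3 and 12.8, 23 and 21 RPKM at day 7. Its day 1 libraries were all above the naive ones, and at days 3 and 7 the groups overlapped. The fold changes were 0.48 at day 1 (SE 0.19, limma adjusted p = 0.246), 0.59 at day 3 (SE 0.19, 0.0987) and 0.21 at day 7 (SE 0.19, 0.758), and none passed. The day 3 value passed under 5 of 25 other settings, among them without day 3 replicate 1 (0.79, adjusted p = 0.0367). That library was the lowest of day 3 for Atf4, so leaving it out was bound to raise the value. Ddit3, which encodes the pro-apoptotic factor Chop, had 7.61, 6.77 and 12.6 RPKM in naive, 10.2, 9.44 and 12.8 RPKM at day 1, 10.5, 11.5 and 11.4 RPKM at day 3 and 8.82, 12.7 and 11.9 RPKM at day 7. Naive replicate 3 was nearly as high as the highest injured libraries, and the fold changes of 0.30, 0.31 and 0.30 (SE 0.18 each) did not pass. Without naive replicate 3 the day 3 value was 0.58 and passed (adjusted p = 0.0428), as it did under only 1 of 25 other settings. Naive replicate 3 was the highest naive library of Ddit3, so leaving it out was bound to raise that value. Atf5, a related factor, ranged from 0.511 to 1.7 RPKM over the 12 libraries with fold changes between -0.09 and 0.30.

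Trib3 and Chac1, regulators that Atf4 and Chop switch on, were the lowest genes that rose. Trib3, a pseudokinase that binds Atf4 and dampens the response, had 0.408, 0.61 and 0.514 RPKM in naive, 2.05, 1.4 and 1.25 RPKM at day 1, 1.22, 1.36 and 1.28 RPKM at day 3 and 1.39, 0.91 and 1.14 RPKM at day 7. All 9 injured libraries were above all 3 naive ones, on 32 to 67 reads in the injured and 12 to 21 reads in the naive libraries. The fold change was 1.03 at day 1 (SE 0.23, limma adjusted p = 0.0232), and 0.80 at day 3 (0.0566) and 0.69 at day 7 (0.16) did not pass. Chac1 had 0.311, 0.569 and 0.504 RPKM in naive, 1.76, 0.96 and 1.28 RPKM at day 1, 1.79, 2.14 and 1.05 RPKM at day 3 and 0.947, 2.41 and 0.888 RPKM at day 7. Here too all 9 injured libraries were above the naive ones, with 19 to 67 reads in injured and 7 to 15 reads in naive libraries. Both genes were tested only through injured libraries, which favours such a separation, so it is a description only. On a single day, all 3 injured libraries lay above the naive ones for 11.0%, 13.8% and 11.0% of all genes at days 1, 3 and 7. Its fold change was 1.12 at day 3 (SE 0.31, limma adjusted p = 0.0463) and passed, while 0.92 at day 1 (0.143) and 0.90 at day 7 (0.173) did not. The day 1 call of Trib3 was lost in 6 of 24 other settings, 4 of them with 1 library left out (adjusted p = 0.0904 when naive replicate 1 was left out, 0.0752 for naive replicate 3, 0.133 for day 1 replicate 1 and 0.0533 for day 1 replicate 2). The day 3 call of Chac1 was lost in 15 of 24 and held in 9. Its adjusted p reached 0.186 when day 3 replicate 2 was dropped. The Chac1 call was also lost with no minimum RPKM (1.11, adjusted p = 0.0779). It was lost too with 1 instead of 0.5 added to the RPKM (0.83, 0.0574), and with voom, limma on the recovered reads (1.75, 0.062).

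Sesn2, which curbs mTORC1 when amino acids are short, ranged from 0.77 to 1.6 RPKM in injured libraries and from 0.521 to 0.74 RPKM in naive ones without overlap. It too was tested only through injured libraries, which favours such a separation, and its fold changes of 0.51, 0.48 and 0.59 did not pass. Ddit4, another inhibitor of mTORC1, had 0.331 to 1.04 RPKM on 9 to 30 reads and was not tested.

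Of the enzymes, Mthfd2 rose at days 3 and 7. It encodes a mitochondrial enzyme of one-carbon metabolism. Mthfd2 had 2.83, 2.65 and 2.67 RPKM in naive, 4.36, 4.34 and 4.57 RPKM at day 1, 7.2, 6.26 and 5.35 RPKM at day 3 and 4.07, 8.75 and 5.49 RPKM at day 7. The naive and day 1 libraries each lay close together, the day 7 libraries were spread, and no injured library reached down to the naive range. The fold change was 1.04 at day 3 (SE 0.20, limma adjusted p = 0.00523) and 0.95 at day 7 (SE 0.20, adjusted p = 0.0141), and both passed. At day 1 it was 0.62 (SE 0.20, adjusted p = 0.117) and passed under 3 of 25 other settings. The day 3 call held in all 25 other settings. The day 7 call was lost in 5 of 25: without the 2 libraries with muscle transcripts (0.69, adjusted p = 0.128), without each naive replicate in turn (0.0516, 0.0598 and 0.0592) and with only the 2 groups in the fit (0.0584).

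Asns had 38.8, 27 and 29.5 RPKM in naive, 37.3, 28.5 and 49.2 RPKM at day 1, 45.9, 58.2 and 47.8 RPKM at day 3 and 35.4, 54.3 and 48.3 RPKM at day 7. Its 3 day 3 libraries lay above all naive ones, and at days 1 and 7 the groups overlapped. It rose at day 3 (0.64, SE 0.17, limma adjusted p = 0.0363) and did not pass at day 1 (0.26, 0.537) or day 7 (0.50, 0.169). The day 3 call was lost in 9 of 25 settings, among them without naive replicate 2 (0.56, adjusted p = 0.173) and without day 3 replicate 2 (0.56, 0.162). Psat1, an enzyme of serine synthesis, had a like course with 16.8 to 20.1 RPKM at day 3 against 10.9 to 16.2 RPKM in naive (0.55, adjusted p = 0.102), short of the threshold, which it passed under 4 of 25 other settings, voom among them (0.57, 0.0451). Phgdh, the first enzyme of serine synthesis, ranged from 4.29 to 7.33 RPKM and Shmt2, a mitochondrial serine enzyme, from 0.943 to 1.93 RPKM, with fold changes of 0.07 to 0.26 on all days.

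The amino acid transporters of the list gave 1 rise. Slc7a5, the light chain of the large neutral amino acid transporter, had 8.8, 6.97 and 7.05 RPKM in naive, 9.52, 8.64 and 9.32 RPKM at day 1, 10, 11.1 and 12.1 RPKM at day 3 and 8.64, 12 and 10.6 RPKM at day 7. Its day 3 libraries were all above naive, and 1 library of day 1 and 1 of day 7 lay just under naive replicate 1. The fold change was 0.49 at day 3 (SE 0.12, limma adjusted p = 0.025), and 0.27 at day 1 (0.3) and 0.40 at day 7 (0.0993) did not pass. The day 3 call was lost in 6 of 25 settings, 5 of them with a naive or day 3 library left out (adjusted p 0.051 to 0.114). Slc3a2, the heavy chain that pairs with Slc7a5, had 16.7 to 17.3 RPKM at day 3, against 11.2 to 13.7 RPKM in naive, with fold changes of 0.54 (adjusted p = 0.0744), 0.46 (0.104) and 0.35 (0.344) at days 1, 3 and 7. It passed under 5 of 25 other settings at day 1, voom among them (0.57, adjusted p = 0.0324), and under 3 at day 3. Slc7a11, the cystine importer, had 1.77 to 2.19 RPKM at day 7, against 0.764 to 1.41 RPKM in naive (0.58, adjusted p = 0.211). By limma on RPKM it passed on no day, and with voom it passed at day 7 (0.80, adjusted p = 0.0384).

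**Figure D3:**
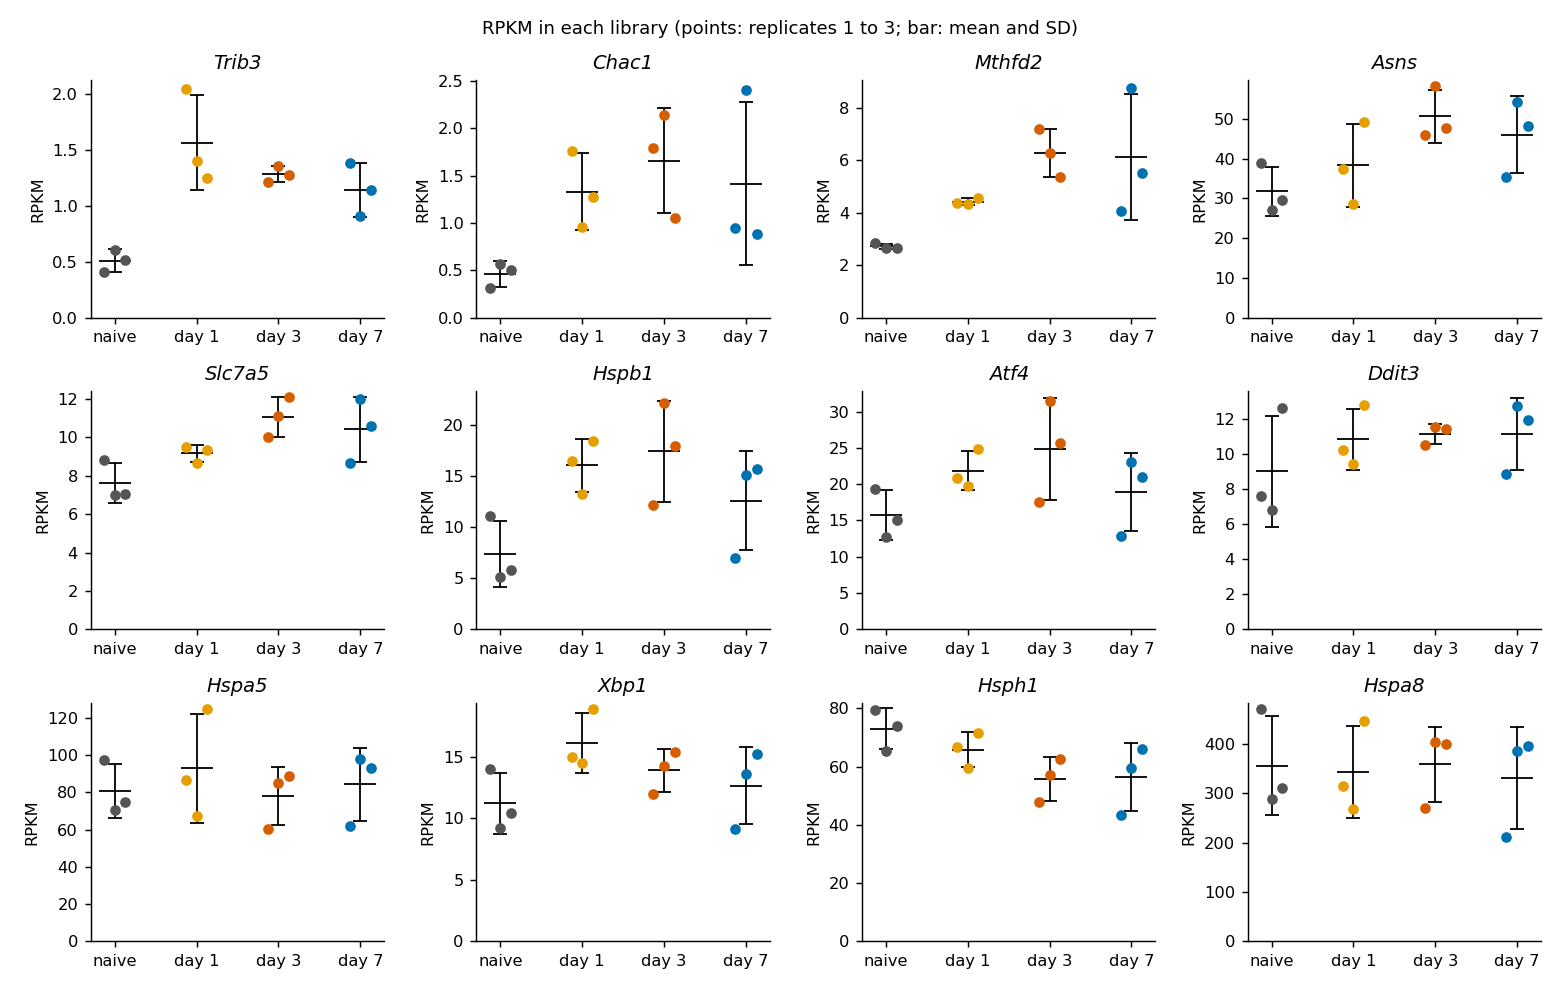
RPKM of 12 of the genes in each of the 12 libraries, by group (points: replicates 1 to 3 from left to right, bar: mean and SD, each axis from 0). Trib3, Chac1 and Mthfd2 have every injured library above the naive ones, Asns, Slc7a5 and Hspb1 have the 3 day 3 libraries above them, and Hspa5 and Hspa8 overlap between all groups. Taken day by day, such a separation was found for 11.0%, 13.8% and 11.0% of all genes at days 1, 3 and 7. Trib3 and Chac1 were tested only through injured libraries, which favours it.

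The ER stress genes showed no change that passed on any day. Of 11 tested genes, 5 had positive and 6 negative fold changes at day 1, 5 and 6 at day 3, and 6 and 5 at day 7, with medians of -0.02, -0.05 and 0.02. At an unadjusted p under 0.05 there were 1, 2 and 0 of these 11 genes, where 14.9%, 17.8% and 12.9% of all genes were. With voom (limma on the recovered reads) Xbp1 passed at day 1 (0.55, adjusted p = 0.0427) and no ER gene at days 3 and 7. Hspa5, whose rise is the usual sign of ER stress, had 97.5, 70.6 and 74.7 RPKM in naive, 86.7, 67.2 and 125 RPKM at day 1, 60.4, 84.8 and 89 RPKM at day 3 and 61.9, 98.1 and 92.9 RPKM at day 7. The 4 groups overlapped. Its fold changes were 0.17, -0.09 and 0.02 (SE 0.19 each, limma adjusted p of 0.76, 0.873 and 0.987), and their signs turned when single libraries were left out.

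Xbp1, the factor made active by Ire1, had 14, 9.23 and 10.4 RPKM in naive, 15, 14.5 and 18.9 RPKM at day 1, 12, 14.3 and 15.4 RPKM at day 3 and 9.15, 13.6 and 15.2 RPKM at day 7. Its day 1 libraries were all above the naive ones, the lowest by a small margin. The fold change was 0.53 at day 1 (SE 0.15, limma adjusted p = 0.0754), 0.29 at day 3 (0.344) and 0.13 at day 7 (0.819), none of which passed. The values count both spliced and unspliced Xbp1 messengers. The day 1 value passed under 6 of 25 other settings, among them without naive replicate 1 (0.65, adjusted p = 0.0493). That library was the highest naive one for Xbp1, so leaving it out was bound to raise the value.

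The remaining ER genes gave no call either. Dnajc3, a co-chaperone that also restrains the eIF2 alpha kinases, was the lowest at day 3, with 24.2, 23.9 and 28.8 RPKM, against 31.9, 33.3 and 34.5 RPKM in naive (-0.40, SE 0.13, limma adjusted p = 0.0894). The groups did not overlap, which in the downward direction was so for 12.7% of all genes at day 3. That value passed under 6 of 25 other settings, among them without day 7 replicate 1 (-0.41, adjusted p = 0.0245). Sdf2l1, an ER chaperone partner, had 1.75 to 3.31 RPKM at day 3, against 1.25 to 1.61 RPKM in naive (0.52, adjusted p = 0.274), and rested on 14 to 58 reads. Hsp90b1, Dnajb9 and Edem1, which serve folding and disposal of ER proteins, the stress-induced membrane protein Herpud1, the disulfide isomerases Pdia4 and Pdia6, and the lectin chaperone Calr had fold changes between -0.22 and 0.18 on all days.

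Among the heat shock genes, Hspb1 was the one that rose. Of 8 tested genes, 3, 4 and 2 had positive and 5, 4 and 6 negative fold changes at days 1, 3 and 7, with medians of -0.04, 0.10 and -0.11. Hspb1, a small heat shock protein that holds unfolded proteins and protects axotomised neurons, had 11.1, 5.15 and 5.84 RPKM in naive, 16.5, 13.2 and 18.4 RPKM at day 1, 12.2, 22.1 and 17.9 RPKM at day 3 and 7, 15.1 and 15.7 RPKM at day 7. All day 1 and day 3 libraries were above naive replicate 1, the highest naive library, and day 7 replicate 1 was below it. Hspb1 rose at day 3 (1.19, SE 0.29, limma adjusted p = 0.0292). At day 1 the value of 1.14 (SE 0.29) lay at the threshold with an adjusted p of 0.0505, and at day 7 the value of 0.70 had an adjusted p of 0.304. The day 1 value passed under 11 of 25 other settings, among them voom (1.21, adjusted p = 0.0102) and settings without naive replicate 1. The day 7 value passed under 2 of 25. Without the libraries with muscle transcripts, naive replicate 1 and day 7 replicate 2, the values were 1.42 (adjusted p = 0.0151) at day 1 and 1.48 (0.00754) at day 3. Naive replicate 1 was the highest naive library of Hspb1, so leaving it out was bound to raise both values. They were the same, 1.42 and 1.48, without naive replicate 1 alone. The day 3 call was lost in 6 of 25 settings, among them without naive replicate 2 (1.01, adjusted p = 0.132) or day 3 replicate 2 (1.02, 0.121).

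Hsph1 had the most negative fold changes of the 8 tested heat shock genes at days 3 and 7. It had 79.6, 65.5 and 73.9 RPKM in naive, 66.6, 59.6 and 71.4 RPKM at day 1, 47.7, 57 and 62.7 RPKM at day 3 and 43.4, 59.5 and 66.1 RPKM at day 7. Its day 3 libraries were all below the naive ones, and at day 7 only the highest library reached into the naive range. The fold change was -0.14 at day 1 (limma adjusted p = 0.679), -0.42 at day 3 (SE 0.12, 0.0642) and -0.41 at day 7 (SE 0.12, 0.0993), and none passed. The day 3 value passed under 6 of 25 other settings, among them voom (-0.42, adjusted p = 0.0411), and the day 7 value under 1, the gene length correction (-0.42, 0.0321).

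The remaining heat shock and chaperonin genes gave no call on any day. Hspa1a and Hspa1b, the inducible Hsp70 genes, are near-identical neighbours whose reads can be split either way, so their values are uncertain. Hspa1a had 0.723, 0.298 and 0.754 RPKM in naive, 0.381, 0.392 and 0.956 RPKM at day 1, 0.49, 0.43 and 0.518 RPKM at day 3 and 0.509, 0.485 and 0.603 RPKM at day 7. Hspa1b had 0.149, 0.382 and 0.375 RPKM in naive, 0.424, 0.463 and 0.357 RPKM at day 1, 0.133, 0.338 and 0.305 RPKM at day 3 and 0.0441, 0.443 and 0.444 RPKM at day 7. For both genes the 4 groups overlapped, on 14 to 48 reads for Hspa1a and 2 to 22 reads for Hspa1b, and neither was tested. Dnajb1, the inducible partner of Hsp70, ranged from 3.99 to 9.45 RPKM with fold changes of 0.22, 0.20 and -0.16. Hspb8, another small heat shock protein, ranged from 17.9 to 46 RPKM, with 0.26, 0.33 and -0.06. The mitochondrial chaperonin genes Hspd1 and Hspe1 had fold changes of -0.40 to -0.07, Hspa8 of -0.15 to -0.01 and Hsp90aa1 of -0.03 to 0.22, and none of these passed.

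Within groups, the heat shock genes were high or low together in the same libraries. The share of all genes that were highest or lowest in these libraries was not counted, so the counts below are not shown to be particular to these genes. Naive replicate 1 was the highest naive library for 8 of 8 tested heat shock genes, with a median of 0.25 above its group mean on the log2 scale. Day 1 replicate 3 was highest of its group for 7 of 8 (median 0.20) and day 7 replicate 2 for 7 of 8 (0.24). Day 3 replicate 1 was lowest for 8 of 8 (-0.28) and day 7 replicate 1 for 8 of 8 (-0.34). Of the 11 ER genes, 8 were highest of their group in naive replicate 1 (median 0.13) and 8 in day 1 replicate 3 (0.20), and 8 were lowest in day 3 replicate 1 (-0.21) and 8 in day 7 replicate 1 (-0.23). Of the 14 tested Atf4 pathway genes, 9 were lowest of their group in day 1 replicate 2, 9 in day 3 replicate 1 and 8 in day 7 replicate 1. In day 3 replicate 2 and in day 7 replicate 2, 8 each were highest. Their medians ran from -0.18 in day 7 replicate 1 to 0.16 in day 7 replicate 2, a span slightly narrower than that of the ER genes (-0.23 to 0.20).

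The summed neuron markers moved with this, and so in large part did those of other cell types. Neuron markers were highest of their group in naive replicate 1 (4053 RPKM), day 1 replicate 3 (3819 RPKM) and day 7 replicate 2 (3385 RPKM). They were lowest of their group in day 3 replicate 1 (2739 RPKM) and day 7 replicate 1 (1975 RPKM). Schwann cell, satellite glia and fibroblast sums were also highest of their group in naive replicate 1 (1536, 397 and 248 RPKM) and day 1 replicate 3. Their lowest values within these groups were likewise in day 3 replicate 1 and day 7 replicate 1 (892, 283 and 167 RPKM). Vessel markers did not follow, with 68.5 RPKM in naive replicate 1 and 66.7 to 69.8 RPKM over the naive libraries. The second principal component of all genes, with 16% of the variance, had naive replicate 1 (28.5) and day 7 replicate 1 (-32.9) at its ends. Genes of at most 1701 bases were lower in day 7 replicate 1 (median -0.16) and genes of at least 4401 bases higher (0.19), with the reverse in day 3 replicate 2 (0.13 and -0.11). Summed immediate early genes that react to handling were lowest in day 7 replicate 1 (9.89 RPKM) and highest in day 1 replicate 3 (21.3 RPKM). The part of these differences between libraries in the results above was not tested beyond leaving libraries out. A setting chosen after seeing the data left out naive replicate 1 and day 7 replicate 1. In it, 2 of the tested genes passed at day 1, 6 rose and 1 fell at day 3, and 4 rose at day 7. There Hspb1 had a day 7 value of 1.28 (limma adjusted p = 0.00419). These 2 libraries were its highest naive (11.1 RPKM) and lowest day 7 library (7 RPKM), so leaving them out was bound to raise that value. The gene that fell at day 3 in this setting was Dnajc3 (-0.47, adjusted p = 0.0194).

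**Figure D4:**
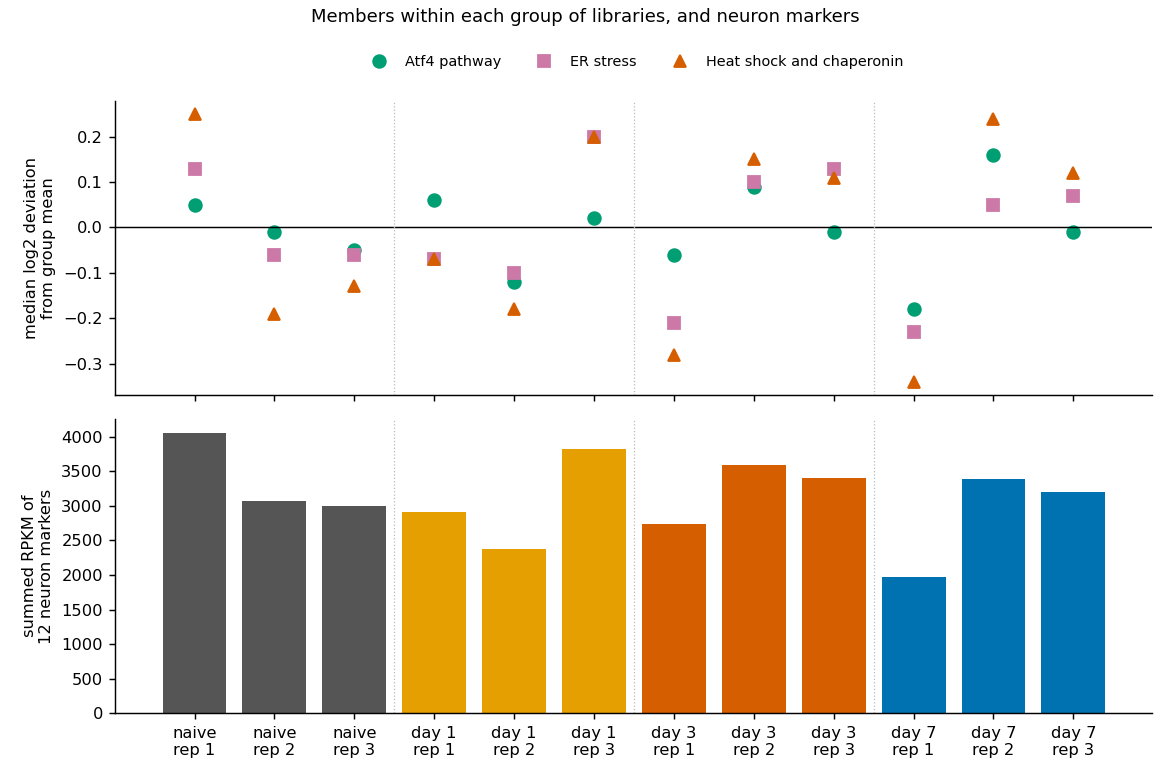
Top, median log2 deviation of the tested Atf4 pathway, ER stress and heat shock genes from their group mean in each of the 12 libraries, and bottom, the summed RPKM of 12 neuron markers in the same libraries. The heat shock symbols run from 0.25 in naive replicate 1 to -0.34 in day 7 replicate 1, and these 2 libraries also have the highest (4053) and lowest (1975) neuron marker sums. Schwann cell, satellite glia and fibroblast marker sums, not drawn, were also highest of the naive and lowest of the day 7 libraries there.

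Among further genes of the 3 pathways, taken from lists of their own, those of the Atf4 pathway held all the calls against naive. Of 41 such genes, 33 were tested, of which 4 rose at day 1, 5 at day 3 and 2 at day 7, and none fell. Of all genes, 3.43%, 5.67% and 2.92% were called in either direction on these days. The median fold changes were 0.19, 0.22 and 0.16. Atf3 was among the calls on each day. Atf3, a partner factor and a marker of nerve injury that many other signals also raise, was much the largest, at 4.61, 4.96 and 4.25 (limma adjusted p of 2.18e-10, 7.8e-11 and 6.71e-10). Slc1a4, an importer of alanine, serine and cysteine, had 10.6, 9.06 and 9.35 RPKM in naive, 16.3, 14.4 and 18 RPKM at day 1, 21, 22.4 and 20.5 RPKM at day 3 and 13.5, 17.6 and 15.5 RPKM at day 7. Its fold changes were 0.72, 1.08 and 0.62 (adjusted p of 0.00131, 2.34e-05 and 0.00381), and the libraries of no injured group overlapped the naive ones. The day 7 call of Slc1a4 was lost without the 2 libraries with muscle transcripts (0.58, adjusted p = 0.0556).

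The remaining calls were aminoacyl-tRNA synthetases, which load amino acids onto tRNAs. Iars (isoleucine) rose at day 1, with 76.4, 69.8 and 79.5 RPKM, against 54.9, 46.5 and 45.4 RPKM in naive (0.63, limma adjusted p = 0.00475). Aars (alanine) rose at day 3, with 30.3, 30.2 and 32.3 RPKM, against 21.9, 16.6 and 16.7 RPKM in naive (0.72, adjusted p = 0.00319). Gars (glycine) rose at day 3, with 85.6, 108 and 90.1 RPKM, against 66.7, 53.4 and 52 RPKM in naive (0.69, adjusted p = 0.0237). Cars (cysteine) rose at day 1 (0.70, adjusted p = 0.0481) and day 3 (0.68, 0.0398), both close to the threshold. The Cars calls were lost in 15 of 25 settings at day 1 and 10 of 25 at day 3, and that of Gars in 7 of 25. Of 35 tested other ER stress genes and 40 tested other heat shock and chaperone genes, limma called 0 on any day. At an unadjusted p under 0.05 there were 1, 1 and 1 of the ER genes and 4, 3 and 4 of the heat shock genes at days 1, 3 and 7, shares below the 14.9%, 17.8% and 12.9% of all genes.

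Between the days after injury, none of the 33 tested genes passed. The share of all genes called was 0.507% at day 3 against day 1, 0.972% at day 7 against day 1 and 0% at day 7 against day 3. At an unadjusted p under 0.05 there were 5, 3 and 0 of the 33 genes, where 9.42%, 10.4% and 5.04% of all genes were, and voom called 0 in each. A gene that passed at 1 day and not at another, such as Trib3 at day 1 or Slc7a5 at day 3, was thus not shown to differ between those days. The 5 genes at day 3 against day 1 were Asns (0.39), Psat1 (0.42) and Sdf2l1 (0.54), which were higher at day 3, and Dnajc3 (-0.31) and Hsph1 (-0.28), which were lower, with limma adjusted p of at least 0.434.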

How the data were processed

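Dorsal root ganglion RNA from 12 libraries was measured, 3 each from naive mice and from 1, 3 and 7 days after injury, grouped by sample title. RNA was taken up in Trizol and cleaned on RNeasy columns with DNase, per the labels' protocols, amplified with a Nugen Ovation low-input kit (500 pg) and made into TruSeq Nano libraries. The submitters' processing notes name mm10 as the build and, with no role given, limma, edgeR, HTSeq, STAR and bcl2fastq 2.17. Strandedness is not given in the sources used here, so reads of overlapping antisense genes cannot be told apart. The deposited values were read as RPKM, computed by the authors from reads, gene length and library size. No file names this unit. It rests on the steps of the values, which gave whole reads for 21595 of 21597 detected genes (99.99%, tolerance 0.05 reads).

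Libraries were scaled with unweighted trimmed means of log ratios (30% and 5% trim), a minimum of 1 RPKM in 3 or more libraries was set, and log2(RPKM + 0.5) was fitted with limma 3.58.1 in R 4.3.3 (statmod 1.5.0), with 4 group means, 8 residual degrees of freedom, a variance trend and robust moderation. Fold changes on this scale understate those of low genes. All tests were two-sided, and p-values were adjusted by Benjamini-Hochberg over 14195 genes. An added test ran voom on the recovered reads. The 36 genes, the lists and the tests were chosen with earlier results of these data known. Values in every library are given for genes that passed against naive or in the test of 4 groups, and always for Atf4, Ddit3, Trib3, Hspa5, Xbp1, Hspa1a, Hspa1b and Hspb1. Hsph1 and Dnajc3, among the genes of their lists with the smallest p in the test of 4 groups, are shown the same way, and of the pathway lists up to 5 genes per day that passed. Reads were amplified without molecular identifiers, so read numbers overstate the molecules behind them. The other settings were other pseudocounts, filters and scalings, array weights, voom, fits of 2 groups, a replicate block, each library left out in turn, and the libraries with muscle transcripts left out. Chosen after seeing the data and counted with them were a gene length correction and a fit without the 2 libraries at the ends of principal component 2. The fit was tested on simulated data with known fold changes.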

Additional observations from a re-analysis of the deposited data

Results flagged for a closer look

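Iars, the isoleucine tRNA synthetase, differed between days after injury, and no other gene of the 36 or of the pathway lists did so at an adjusted p under 0.05. It had 51.2, 47.2 and 51.2 RPKM at day 7, against 76.4, 69.8 and 79.5 RPKM at day 1, a log2 fold change of -0.62 (SE 0.11, limma adjusted p = 0.016, lower in 3 of 3 libraries). At day 3 it had 62.2, 64.5 and 64.6 RPKM, between the other two days. The call was lost in 6 of 25 other settings, without day 1 replicate 1 (adjusted p = 0.0745), day 1 replicate 3 (0.0531), day 7 replicate 2 (0.07) or day 7 replicate 3 (0.0548), without the 2 libraries with muscle transcripts (0.0894) and with only these 2 groups in the fit (0.152). The cause was not tested.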

How the results depend on the processing

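With few genes close to the threshold, counts of calls moved with the settings. At day 1, where 1 of the 36 genes passed, 2 passed with a pseudocount of 0.1, 8 with array weights, 4 with voom, 3 with only the 2 groups in the fit, 2 without the 2 libraries at the ends of principal component 2 and 4 with a gene length correction, the last 2 settings chosen after seeing the data. At day 3, where 5 passed, the counts were 3 with no expression filter, 12 with array weights and 10 with 2 groups. At day 7, where 1 passed, they were 5 with array weights, 2 with voom, 0 without the libraries with muscle transcripts, 0 with 2 groups, 4 without the ends of principal component 2 and 3 with the length correction. In the test of 4 groups, where 1 passed, they were 2 with a pseudocount of 0.1, 2 with no scaling, 12 with array weights, 3 with voom, 2 without the muscle libraries, 5 without the ends of principal component 2 and 6 with the length correction. Leaving out 1 library gave 0 to 4 calls at day 1, 1 to 8 at day 3, 0 to 1 at day 7 and 0 to 3 in the test of 4 groups. Day 1 had 0 calls without naive replicate 3 or day 1 replicate 1 and 4 without day 7 replicate 1. Day 3 had 1 call without naive replicate 2 or day 3 replicate 2 and 8 without day 7 replicate 1, and day 7 had 0 without any 1 naive replicate. With the replicate block 1 of the 5 day 3 calls, Mthfd2, passed, and the block changed no other count by over 1.5 times. The numbers were not taken to pair libraries, since 3 of 18 same-numbered pairs correlated above 0.1 and 4 of 12 libraries correlated best with their own number. Between days 0 passed in each setting. Hspa5 ran from -0.02 to 0.36, -0.18 to 0.06 and -0.08 to 0.15 at days 1, 3 and 7 with 1 library left out. It turned sign at day 1 without day 1 replicate 3 (-0.02), at day 3 with array weights, without the muscle libraries, without the ends of principal component 2 and without naive replicate 1 (0.02 each) and without day 3 replicate 1 (0.06), and at day 7 with the length correction (-0.00) and without naive replicate 2 (-0.05) or 3 (-0.02) or day 7 replicate 2 (-0.08) or 3 (-0.01). The cause was not tested. The heat shock median at day 7 ran from -0.28 without day 7 replicate 2 to 0.28 without the ends of principal component 2. The 3 Atf4 pathway medians stayed positive in every setting. Trib3 and Chac1 rest on 67 reads or fewer in any library, and Hspa1a and Hspa1b, on 48 or fewer, were not tested.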
